A study of Homo sapiens with 8 samples.

Results

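The genes described here were grouped as DNA methylation and chromatin copying genes. All but ZNF367, a zinc finger gene of the same list, take part in passing DNA methylation or chromatin on when a cell replicates its DNA. They are DNMT1, UHRF1, HELLS, CDCA7, ZNF367, EZH2, SUZ12, CHAF1A, CHAF1B and ASF1B, which are 10 of 18231 genes measured. They were named as a list, and the list was made with earlier results of these data in view. Only probe sets annotated to a single gene were taken. Of these, 1 per gene was chosen by its mean level, the highest across the 8 arrays, so the levels are a description. The 10 genes had 27 such probe sets, and the other 17 served as a check. No filter on low values was used, and each of the 10 genes had a mean level above the median of all genes (5.94, log2).

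The samples were RNA from JVM13, an established human B-cell line from a prolymphocytic leukaemia, on Affymetrix human expression arrays. Cells carried an inducible vector with wild-type cyclin D1 (3 arrays), with the T286A form of cyclin D1, which is more stable (3 arrays), or with no insert (empty vector, 2 arrays). All 3 groups, the empty vector cells included, were given 0.1 µg/mL doxycycline, the drug that switches the vector on. The comparison therefore asks what cyclin D1 does to gene expression, and what its stable form does beyond it. The labels do not state the promoter, the length of induction, how many cell populations or clones were made per construct, or whether replicates of a group were separate cultures. The p-values therefore reflect how far these arrays scatter, and that scatter may be technical only. Values are log2 expression after robust multi-array averaging (RMA), which gives all arrays the same distribution of intensities, so each difference is relative to the other genes. A difference of 1 on this scale is a doubling, and background in dim probe sets makes differences too small. In a culture, more cells in one phase of the cell cycle and more RNA per cell cannot be told apart.

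When a replication fork passes, each new strand lacks methyl groups, and old nucleosomes must be supplemented with new ones. UHRF1 recognises hemimethylated DNA and brings in DNMT1, which methylates the new strand, while HELLS, with its activator CDCA7, remodels nucleosomes so that the methylation machinery gains access. The chaperones ASF1B and CAF-1, a complex that contains CHAF1A and CHAF1B, hand new histones to the DNA, and EZH2 and SUZ12 are core subunits of Polycomb repressive complex 2, which methylates histone H3 at lysine 27. Cyclin D1 with its kinase partners phosphorylates the retinoblastoma protein, which releases E2F factors, activators of many genes of S phase.

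Because 5 of the 10 genes rose together, the sequence around their start sites was examined for letters that E2F factors are known to bind. RefSeq windows on GRCh38.p14, from 250 bases before to 50 after each annotated start, were matched for 10 of 10 genes and came to 13 windows, 3 of them for UHRF1 and 2 for EZH2. The stretches shown are of the 5 genes that rose, and of DNMT1 and SUZ12, which carry the letters but did not pass the test. HELLS, EZH2 and CHAF1B also carry letters without passing it and are not printed. Each is printed 5' to 3' on the strand of the gene. UHRF1 lies at chr19:4909367-4909520 (plus strand, the first of its 3 windows), CDCA7 at chr2:173354777-173354843 (plus), ZNF367 at chr9:96418355-96418435 (minus), CHAF1A at chr19:4402573-4402659 (plus), ASF1B at chr19:14136608-14136838 (minus), DNMT1 at chr19:10194934-10194985 (minus) and SUZ12 at chr17:31936789-31936855 (plus). Capitals mark E2F letters on either strand, except in ASF1B, where none were found and capitals mark CCAAT boxes on the reverse strand.
UHRF1: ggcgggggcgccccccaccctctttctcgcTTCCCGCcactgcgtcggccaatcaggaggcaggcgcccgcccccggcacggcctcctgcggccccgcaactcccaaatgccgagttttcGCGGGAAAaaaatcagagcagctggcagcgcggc
CDCA7: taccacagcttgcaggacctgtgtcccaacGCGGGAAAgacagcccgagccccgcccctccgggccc
ZNF367: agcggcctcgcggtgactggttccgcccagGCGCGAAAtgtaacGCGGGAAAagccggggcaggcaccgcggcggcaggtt
CHAF1A: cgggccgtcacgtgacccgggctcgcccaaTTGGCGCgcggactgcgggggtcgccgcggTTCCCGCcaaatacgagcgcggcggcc
ASF1B: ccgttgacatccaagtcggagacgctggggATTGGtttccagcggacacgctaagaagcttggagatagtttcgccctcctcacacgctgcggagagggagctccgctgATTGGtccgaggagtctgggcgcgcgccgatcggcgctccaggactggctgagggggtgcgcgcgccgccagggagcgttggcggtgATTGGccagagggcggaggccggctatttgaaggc
DNMT1: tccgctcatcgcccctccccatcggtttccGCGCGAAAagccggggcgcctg
SUZ12: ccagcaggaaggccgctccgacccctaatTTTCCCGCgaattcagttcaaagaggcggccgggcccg

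The 8-letter forms searched were TTTCCCGC, TTTCGCGC, TTTGCCGC and TTTGGCGC on both strands, and the 7-letter forms were the same without their first T, so every 8-letter match also holds a 7-letter match. An 8-letter match stood in the windows of 7 of 10 genes, all but CHAF1A, CHAF1B and ASF1B. Of 14491 measured genes with a window, 5.53% had one, and of the 7702 at or above the median level 7.26%. Counted by window, 8 of 13 windows (61.5%) held the 8 letters, against 3.31% of all 35116 windows of the same length. Among windows of genes at or above the median level 5.34% did. CDCA7 held them at positions -65 to -58 before its start, and ZNF367 held 2 matches, at -35 to -28 and at -21 to -14. HELLS also held 2, at -76 to -69 and at -8 to -1, and UHRF1 1 in each of 2 windows. The 7-letter forms were found in 9 of 10 genes, all but ASF1B, against 21.0% of measured genes and 26.0% of those at or above the median level. CHAF1A carried 2 of them, at -37 to -31 and at -7 to -1, and CHAF1B carried 1 across its start. The CCAAT box, the letters of the factor NF-Y, stood in 7 of 10 genes against 42.4% of measured genes and 44.1% of those at or above the median level. ASF1B, which was called, had none of the E2F forms searched in its window. DNMT1, HELLS, EZH2 and SUZ12 held the 8 letters and were not called, though their differences were above 0. Whether E2F factors account for any of these values was not tested. A match describes the sequence and is not a measured site, and no binding was measured.

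**Figure D1:**
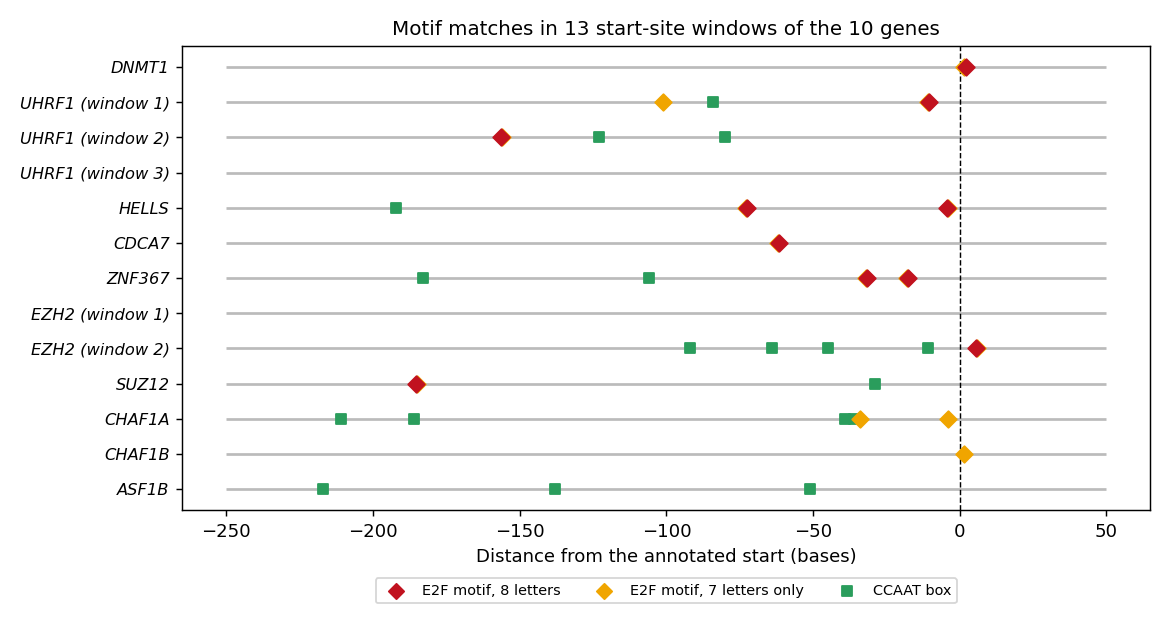
Positions of E2F letters (red, 8 letters; yellow, 7 letters only) and CCAAT boxes (green) in the 13 start-site windows of the 10 genes, with the distance from the annotated start in bases on the x axis and the start as a dashed line. The 8 letters appear in 8 of 13 windows and within 76 bases before the start or just after it in all of these but the second window of UHRF1 and that of SUZ12.

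The labels of empty vector and construct arrays were checked with CCND1, the cyclin D1 gene. Its level was 5.25 and 4.98 in the empty vector arrays, 10.98, 11.13 and 11.07 in wild-type arrays and 11.25, 10.86 and 10.95 in T286A arrays. T286A differed from wild type by -0.044 ± 0.12 (limma adjusted p = 0.902), so CCND1 does not check which construct arrays are wild type and which T286A. All 7 measured B-cell markers lay above the median level of all genes, from PAX5 at 7.94 to MS4A1 at 13.33, and none of the 9 T and NK cell markers did. The mean over the 9 T and NK markers was 4.79 to 4.93 in every array. Of 6 myeloid markers 1 lay above the median (ITGAM), of 4 erythroid and platelet markers 0 and of 6 stromal and epithelial markers 2, the highest being PECAM1 at 8.26. One array, wild-type replicate 2, stood apart from the others, with a median level of 5.47 against 5.57 to 5.62. The mean of 10 housekeeping genes ranged from 11.12 to 11.21, higher in both empty vector arrays than in any construct array.

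DNMT1, the maintenance methyltransferase, had levels of 11.17 and 11.01 in empty vector arrays, 11.18, 11.27 and 11.15 in wild-type arrays and 11.24, 11.38 and 11.30 in T286A arrays. The empty vector arrays overlapped the wild-type arrays, and the T286A arrays lay above both control arrays. With both constructs together, the difference from empty vector was 0.17 ± 0.073 (SE, 6 against 2 arrays; 95% interval -0.0018 to 0.33; limma adjusted p = 0.407), and the gene was not called. Without empty vector replicate 1 the difference was 0.25 (adjusted p = 0.433), and without replicate 2 it was 0.082 (adjusted p = 0.931). A gene is called here when its p, adjusted after Benjamini and Hochberg over all 18231 genes, is under 0.05 in a limma fit of the 3 group means to all 8 arrays.

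UHRF1, the reader of hemimethylated DNA, had levels of 10.74 and 10.73 in empty vector arrays, 11.13, 10.97 and 11.07 in wild-type arrays and 11.22, 11.14 and 11.15 in T286A arrays. Every construct array lay above both control arrays, and every T286A array above every wild-type array. UHRF1 rose by 0.38 ± 0.064, or 1.30-fold, with both constructs together (adjusted p = 0.0355). Against empty vector it differed by 0.32 ± 0.071 with wild type (adjusted p = 0.0782, not called) and rose by 0.43 ± 0.071 with T286A (adjusted p = 0.0488). The call was lost without any array but wild-type replicate 2 (adjusted p = 0.0703 to 0.295) and with the mean of all 3 probe sets of the gene, where the difference was 0.15 (adjusted p = 0.287).

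HELLS, the remodelling ATPase, had levels of 10.24 and 10.22 in empty vector arrays, 10.42, 10.39 and 10.51 in wild-type arrays and 10.44, 10.48 and 10.47 in T286A arrays. All construct arrays lay above both control arrays, while wild-type and T286A arrays overlapped. The difference with both constructs was 0.22 ± 0.059 (adjusted p = 0.144) and did not pass the test. Its partner CDCA7, a zinc finger protein that recruits and activates HELLS, had levels of 9.11 and 9.06, then 9.44, 9.76 and 9.48, then 9.91, 10.04 and 9.91 in the same order of groups. The 3 groups did not overlap, and wild-type replicate 2 was the highest of its group. CDCA7 rose by 0.67 ± 0.093 or 1.59-fold with both constructs (adjusted p = 0.0188), rank 14 among all genes by size of rise. With T286A it rose by 0.87 ± 0.10 or 1.83-fold (adjusted p = 0.0203), and with wild type it differed by 0.48 ± 0.10 (adjusted p = 0.0707), which was not called. The call with both constructs was lost without an empty vector array (adjusted p = 0.152 and 0.222 without replicates 1 and 2), and without T286A replicate 2 or 3 (0.0509 and 0.0549).

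ZNF367, a zinc finger gene whose protein is a putative transcription factor, had levels of 8.47 and 8.42 in empty vector arrays, 8.96, 8.92 and 8.83 in wild-type arrays and 9.18, 9.11 and 9.23 in T286A arrays. The 3 groups did not overlap. ZNF367 rose by 0.60 ± 0.064 or 1.51-fold with both constructs (adjusted p = 0.00995), by 0.46 ± 0.071 with wild type (adjusted p = 0.0213) and by 0.73 ± 0.071 with T286A (adjusted p = 0.0112). It was the only 1 of the 10 genes called with wild type, and the calls were lost without either empty vector array (with both constructs, adjusted p = 0.119 and 0.168 without replicates 1 and 2). With the mean of its 3 probe sets, 2 of them below the median level of all genes, the difference with both constructs was 0.35 (adjusted p = 0.0809).

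EZH2, the methyltransferase subunit of Polycomb repressive complex 2, had levels of 8.87 and 8.79 in empty vector arrays, 9.14, 9.26 and 9.05 in wild-type arrays and 9.20, 9.26 and 9.13 in T286A arrays. Both construct groups lay above both control arrays and overlapped each other. The difference with both constructs was 0.34 ± 0.074 (adjusted p = 0.079), not called. A second EZH2 probe set was called. It read 7.87 and 7.71 in empty vector arrays, 8.36, 8.34 and 8.39 in wild-type arrays and 8.34, 8.56 and 8.55 in T286A arrays, a rise of 0.63 ± 0.084 (adjusted p = 0.0257 in a fit over all 45220 probe sets with 1 gene). SUZ12, which holds the complex together, had levels of 11.07 and 10.91, then 11.24, 11.16 and 11.03, then 11.25, 11.31 and 11.24. Its empty vector arrays overlapped the wild-type arrays and not the T286A arrays. The difference with both constructs was 0.21 ± 0.076 (adjusted p = 0.284), and its other probe sets differed by 0.20 and 0.22. Without empty vector replicate 2 the difference was 0.14 (adjusted p = 0.843), and without replicate 1 it was 0.29 (adjusted p = 0.396). SUZ12 has a near-identical pseudogene copy, so its probe sets may read that too.

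Histone supply was represented by CHAF1A and CHAF1B, the large and middle subunits of CAF-1, and by ASF1B. CHAF1A had levels of 9.17 and 9.28 in empty vector arrays, 9.58, 9.72 and 9.63 in wild-type arrays and 9.68, 9.71 and 9.89 in T286A arrays. Both construct groups lay above the controls, and they overlapped each other. CHAF1A rose by 0.48 ± 0.077 or 1.39-fold with both constructs (adjusted p = 0.0299) and by 0.54 ± 0.086 with T286A (adjusted p = 0.0458), while with wild type it differed by 0.42 ± 0.086 (adjusted p = 0.0582). CHAF1B had levels of 7.91 and 8.01, then 8.25, 8.09 and 8.33, then 8.34, 8.25 and 8.18 in the same order. Its construct arrays also lay above the controls, by 0.29 ± 0.081 (adjusted p = 0.162), and it was not called. With the mean of both CHAF1B probe sets the difference was 0.18 (adjusted p = 0.335). ASF1B, which receives new histone H3 and H4 and passes them to CAF-1, had levels of 9.25 and 9.24, then 9.55, 9.49 and 9.61, then 9.75, 9.78 and 9.70. The 3 groups did not overlap. ASF1B rose by 0.40 ± 0.060 or 1.32-fold with both constructs (adjusted p = 0.0237) and by 0.50 ± 0.068 or 1.41-fold with T286A (adjusted p = 0.0315), and with wild type it differed by 0.30 ± 0.068 (adjusted p = 0.0782). The call of CHAF1A with both constructs was lost without any array but wild-type replicate 2, and that of ASF1B without any but wild-type replicates 2 and 3 (largest adjusted p = 0.232 and 0.248).

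**Figure D2:**
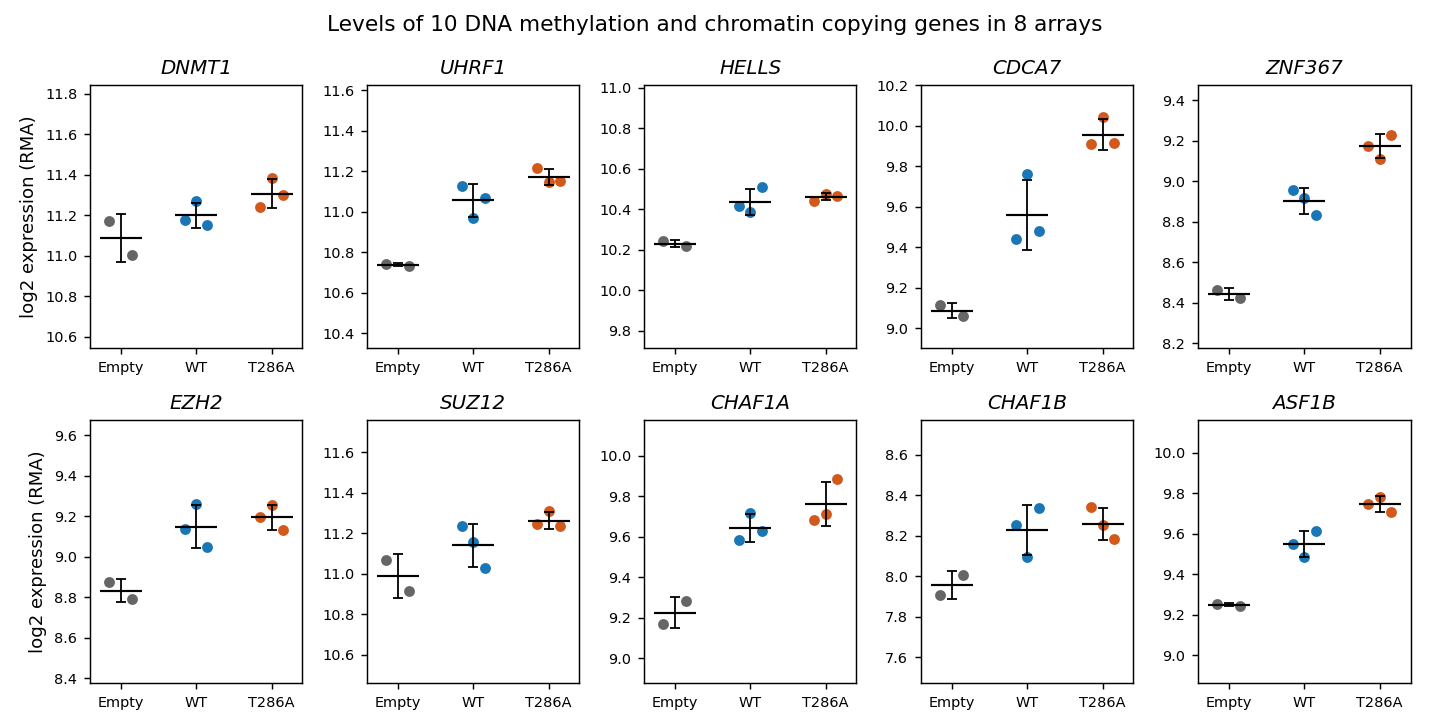
Log2 expression (RMA) of the 10 genes in each of 8 arrays, 1 panel per gene with its own axis range of equal span; points are arrays, the bar is the group mean and the whiskers are ± 1 SD (2 empty vector, 3 wild-type and 3 T286A arrays). As deposited, group means have the order empty vector, wild type, T286A from low to high in every panel. With median centring they do not in HELLS, EZH2 and CHAF1B. Panels show the brightest probe set of each gene, and 13 of the other 17 had T286A above wild type. In 8 of 10 genes no construct array is as low as a control array.

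With both constructs together against empty vector, 5 of the 10 genes were called, all of them higher: UHRF1, CDCA7, ZNF367, CHAF1A and ASF1B. Over all genes 1.4% were called in either direction and 0.702% higher. At an unadjusted p under 0.05, 9 of 10 were higher, against 5.72% of all genes, and DNMT1 alone was not. The construct arrays lay above both controls in 8 of 10 genes, all but DNMT1 and SUZ12, against 6.68% of all genes. The median difference of the 10 genes was 0.36, with a range of 0.17 to 0.67, against a median of -0.00015 over all genes, and 1.24% of all genes lay above 0.36. All 10 differences were above 0 as deposited, where 49.9% of all genes were. They were also above 0 with arrays centred on their medians (61.8% of all genes) or on housekeeping genes (69% of all genes). Without either empty vector array a single control remained. The calls were then lost, while all 10 differences stayed above 0. Hardly any of all genes were called in those fits, so the loss is not particular to these 10. Without wild-type replicates 1, 2 and 3 limma called 2, 5 and 3 of the 10, against 120, 199 and 154 of all genes. Without T286A replicates 1, 2 and 3 it called 2, 1 and 1. Over all genes it called 88 and 78 without T286A replicates 1 and 2.

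Each construct was also set against the same 2 empty vector arrays, so these comparisons share their controls. With wild type 1 gene was called, ZNF367, against 0.603% of all genes called higher and 1.74% in either direction, and 8 of 10 were higher at an unadjusted p under 0.05 (all genes 6.08%). With T286A 5 genes were called, UHRF1, CDCA7, ZNF367, CHAF1A and ASF1B, against 0.34% of all genes called higher and 0.532% in either direction, and all 10 were higher at an unadjusted p under 0.05 (all genes 5.95%). The arrays did not overlap in 8 of 10 genes with wild type and in 10 of 10 with T286A, against 15.2% of all genes in both cases. All 10 differences were above 0 in both comparisons, as were 50.5% of all genes with wild type and 49.1% with T286A. Median differences were 0.31 with wild type and 0.40 with T286A. The wild-type call was lost without either empty vector array and without wild-type replicate 1 or 2. With T286A the calls were lost without either empty vector array, where a single control remained, and after leaving out any T286A array. Without wild-type replicates 1, 2 and 3 limma called 2, 4 and 2 genes. Every such refit also called fewer of all genes than the full fit. With arrays centred on their medians, 4 genes were called with wild type and 3 with T286A. That scaling put 69.1% of all genes above 0 with wild type, with a median of 0.069, and 49.8% with T286A.

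**Figure D3:**
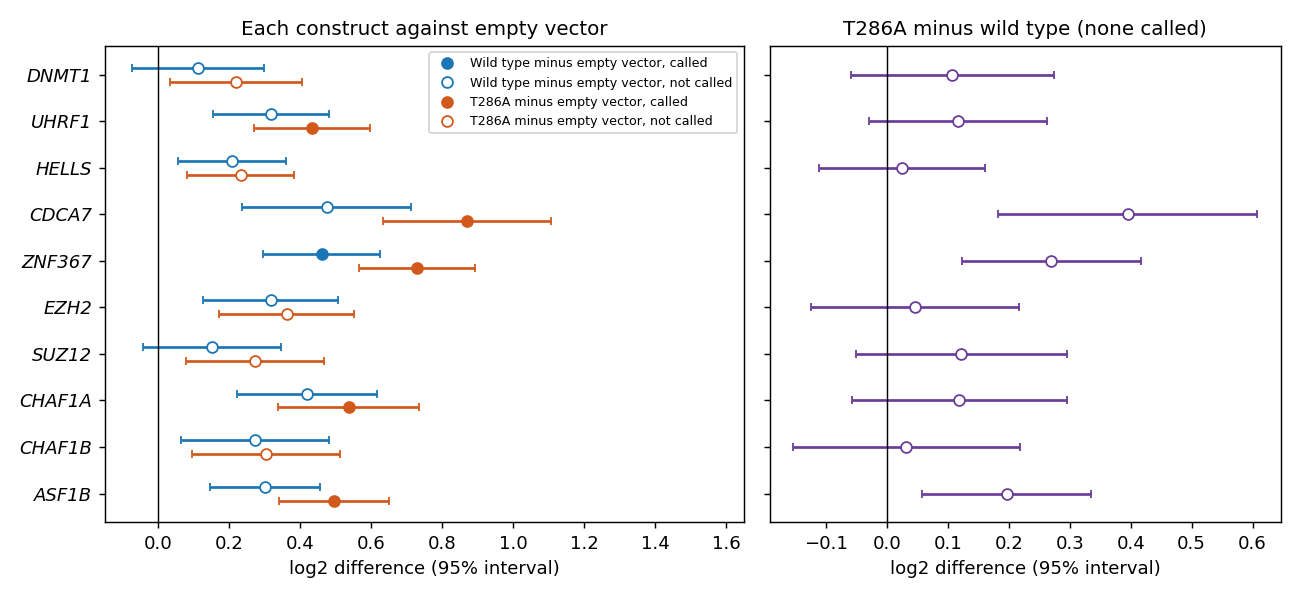
Log2 differences with 95% intervals for the 10 genes, left for wild type (blue) and T286A (orange) against empty vector and right for T286A minus wild type (purple); filled points are called at an adjusted p under 0.05 over all genes. T286A points lie to the right of wild-type points in every gene as deposited, with the brightest probe set of each gene. But 3 of these orders turn when arrays are centred on their medians, and no gene is called in the right panel.

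T286A cells had higher mean levels than wild-type cells for all 10 genes as deposited (50% of all genes did), but limma called 0 of them. Over all genes 0.987% were called, 0.598% higher. With arrays centred on their medians, 7 of 10 were above 0, against 31.1% of all genes, and HELLS, EZH2 and CHAF1B were below it. That scaling also moved the median of all genes to -0.06. At an unadjusted p under 0.05, 3 of 10 were higher (CDCA7, ZNF367 and ASF1B), against 7.16% of all genes, and in 4 of 10, these and UHRF1, the arrays did not overlap, against 9.94%. CDCA7 had the largest difference, 0.40 ± 0.093 (95% interval 0.18 to 0.61, limma adjusted p = 0.119). It was followed by ZNF367 with 0.27 ± 0.064 (0.12 to 0.42, adjusted p = 0.123) and ASF1B with 0.20 ± 0.060 (0.058 to 0.33, adjusted p = 0.215). Other probe sets gave 0.31 for CDCA7, -0.13 and 0.19 for ZNF367, and 0.041 and 0.052 for ASF1B. With the mean of all probe sets ZNF367 differed by 0.11 and ASF1B by 0.096. The other 7 genes differed by 0.025 to 0.12, and each of their intervals reached from below 0 to at most 0.30. Leaving out wild-type replicate 2, the highest CDCA7 value of its group, gave 0.49 for CDCA7 (adjusted p = 0.0351). CDCA7 and ZNF367 were also called when dim genes were left out of the fit (adjusted p = 0.0484 and 0.0361) and with an intensity trend in the variance (0.0105 and 0.0403). As deposited, group means rose from empty vector to wild type to T286A for 10 of 10 genes, against 17.1% of all genes. With median centring this order does not hold for HELLS, EZH2 and CHAF1B. It is also that of the chosen probe sets only. Of the other 17 probe sets, 13 had T286A above wild type, with a median difference of 0.073, and 0 were called. A second probe set of DNMT1, HELLS, ZNF367 and CHAF1B had T286A below wild type (-0.13 to -0.010).

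The other 17 probe sets of the 10 genes, fitted with all 45220 single-gene probe sets, were above 0 in 16 cases with both constructs, and 2 were called higher and 0 lower, against 0.513% of all probe sets called in either direction. These 2 were the second EZH2 probe set and a second ASF1B probe set, which rose by 0.51 ± 0.065 (adjusted p = 0.0238). The same 2 were called with wild type (0.847% of all probe sets) and with T286A (0.122%). The exception was the dimmest UHRF1 probe set, with a mean level of 4.52, at -0.23 ± 0.11 (adjusted p = 0.511). Of the 17 probe sets, 5 lay below the median level: the UHRF1 set just named, 2 of ZNF367 (0.18 and 0.27), 1 of EZH2 (0.11) and the second of CHAF1B (0.078 ± 0.091, mean level 5.11, against 0.29 for the chosen one). Among the brighter ones, the second probe set of CHAF1A gave 0.50 against 0.48, that of DNMT1 0.22 against 0.17, that of UHRF1 0.30 against 0.38 and that of CDCA7 0.48 against 0.67. In this wider fit the chosen probe sets of UHRF1 and CHAF1A lost their calls with both constructs (limma adjusted p = 0.0646 and 0.0517). With T286A those of UHRF1, CHAF1A and ASF1B lost them (0.0843, 0.0755 and 0.0574). The chosen sets of CDCA7 and ZNF367 kept their calls in both comparisons, and that of ASF1B with both constructs (0.0482).

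**Figure D4:**
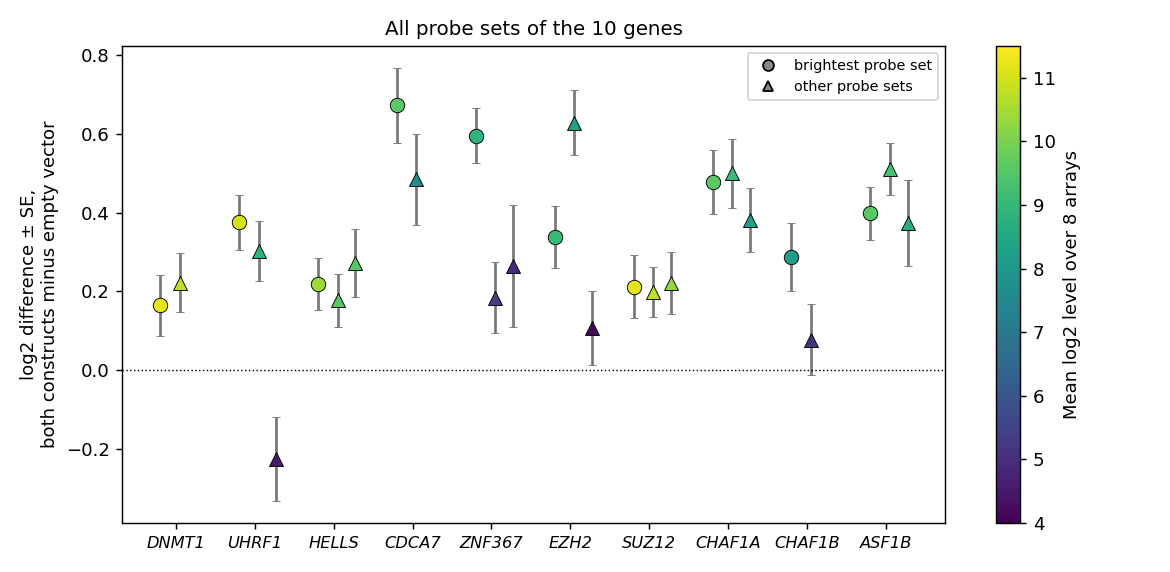
Log2 difference ± SE of both constructs minus empty vector for all 27 probe sets of the 10 genes; circles are the brightest probe set of a gene, triangles the others, and colour is the mean log2 level over 8 arrays. All but 1 lie above 0, and the exception is a UHRF1 probe set with a mean level of 4.52.

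Several of the 10 genes have a close relative, and these were set beside them with both constructs against empty vector. The de novo methyltransferases DNMT3A and DNMT3B differed by -0.14 ± 0.10 and -0.045 ± 0.14 (adjusted p = 0.669 and 0.952). UHRF2 differed by 0.22 ± 0.16, CDCA7L by 0.085 ± 0.063, EZH1, the alternative catalytic subunit of Polycomb repressive complex 2, by -0.078 ± 0.25, and ASF1A by -0.031 ± 0.081, and limma called none (adjusted p = 0.657 to 0.953). A direct test of the difference between each pair, chosen after seeing the data, took the member minus its relative within each array and compared 6 construct with 2 control arrays by an exact two-sided permutation test over 28 splits. The smallest p it can give is 0.0357, and CDCA7 against CDCA7L (a difference of 0.59), ASF1B against ASF1A (0.43) and DNMT1 against DNMT3A (0.30) gave that value. Adjusted over the 6 pairs it was 0.0714, and no pair passed. With so few splits a pair can pass only if nearly all pairs reach the smallest p. The lack of a pass therefore decides nothing about these pairs. EZH2 against EZH1 gave 0.42 (exact p = 0.25), DNMT1 against DNMT3B 0.21 (exact p = 0.393) and UHRF1 against UHRF2 0.15 (exact p = 0.5).

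Other genes of the same pathways were examined in lists, again with both constructs against empty vector. Of 22 genes of the replication fork and its nucleotide supply 14 were called higher and 0 lower, against 0.702% of all genes called higher. Their median difference was 0.37. TK1, a thymidine kinase, rose by 0.73 ± 0.086 (adjusted p = 0.0135), the licensing factor CDT1 by 0.61 ± 0.065 (adjusted p = 0.00995), the helicase subunit MCM6 by 0.54 ± 0.056 (adjusted p = 0.00995) and the helicase cofactor CDC45 by 0.50 ± 0.094 (adjusted p = 0.0477). Without either empty vector array a single control remained and the calls were lost, as were nearly all calls over all genes. Leaving out wild-type replicate 1 gave 8 calls, and leaving out replicate 2 or 3 gave 10. Over all genes these 3 refits called 120, 199 and 154. Leaving out T286A replicate 1 or 3 gave 4, and replicate 2 gave 6. The call of CDC45 was lost without any 1 of the 8 arrays, and those of TK1, CDT1 and MCM6 without either empty vector array. The mean of the 22 fork genes was 10.86 and 10.81 in empty vector arrays, 11.18, 11.18 and 11.19 in wild-type arrays and 11.28, 11.23 and 11.23 in T286A arrays. The mean of the 10 genes moved with it, from 9.60 and 9.57 in empty vector arrays to 9.89, 9.90 and 9.87 in wild-type and 10.02, 10.05 and 10.02 in T286A arrays. Whether a larger share of cells in S phase accounts for these values was not tested. The 8-letter E2F forms were in the windows of 12 of 19 fork genes, against 5.53% of measured genes and 7.26% of those at or above the median level.

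Fewer genes were called in the lists of partners. Over all genes 0.702% were called higher and 1.4% in either direction. Of 19 partners of DNA methylation 1 was called, LIG1, the ligase that seals Okazaki fragments and binds UHRF1, and the median was 0.053. LIG1 had levels of 9.31 and 9.23 in empty vector arrays, 9.60, 9.58 and 9.59 in wild-type arrays and 9.74, 9.76 and 9.65 in T286A arrays, with no overlap, and rose by 0.38 ± 0.060 (adjusted p = 0.0264). Of 26 histone chaperones and their partners 1 was called, MMS22L, which with TONSL reads new histones at forks, and the median was 0.068. MMS22L had levels of 8.11 and 8.34, then 8.75, 8.61 and 8.79, then 8.61, 8.56 and 8.67, and rose by 0.44 ± 0.082 (adjusted p = 0.0477). The calls of LIG1 and MMS22L were lost without any array but wild-type replicate 2 (largest adjusted p = 0.283 and 0.315). At an unadjusted p under 0.05 the chaperone list had 10 of 26 genes higher and 0 lower, against 5.72% of all genes higher. With an intensity trend in the variance 8 of 26 were called, against 719 of 18231 genes.

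Of 22 Polycomb partners limma called 0, with 2 higher and 2 lower at an unadjusted p under 0.05 and a median of 0.0022. At that threshold 5.72% of all genes were higher. With genes below the median level left out, PHF1 and KDM6B among them, 2 were called, against 624 of the genes kept. With an intensity trend 2 were called, against 719 of 18231 genes. PHF19, an accessory subunit of the complex, differed by 0.26 ± 0.059 (adjusted p = 0.0839) and BMI1, a subunit of Polycomb repressive complex 1, by -0.21 ± 0.056 (adjusted p = 0.142). The other core subunits EED, RBBP4 and RBBP7 differed by 0.038, 0.14 and 0.20 (adjusted p = 0.869, 0.419 and 0.304). Of 13 genes for methylation of histone H3 lysine 9 and H4 lysine 20 limma called 0, with 2 higher and 0 lower at an unadjusted p under 0.05 and a median of 0.033. SUV39H1, which methylates lysine 9, differed by 0.16 ± 0.054 (adjusted p = 0.252), and SUV39H2 by 0.25 ± 0.092 (adjusted p = 0.299). Of 10 housekeeping genes 0 were called, with a median of -0.04 and 2 lower at an unadjusted p under 0.05. In T286A against wild type limma called 0 genes of these lists. At an unadjusted p under 0.05, where 7.16% of all genes were higher, there were 3 of 22 Polycomb partners higher and 2 lower, 2 of 22 fork genes higher, 1 of 19 DNA methylation partners higher and 1 of 10 housekeeping genes lower. The counts of fork genes and DNA methylation partners are near that share. The 8-letter E2F forms stood in 3 of 19 DNA methylation partners (15.8%), 4 of 22 Polycomb partners (18.2%) and 3 of 20 chaperones (15%). In the lysine 9 and lysine 20 list 1 of 12 genes had them (8.33%). Among measured genes 5.53% had them, and among those at or above the median level 7.26%.

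**Figure D5:**
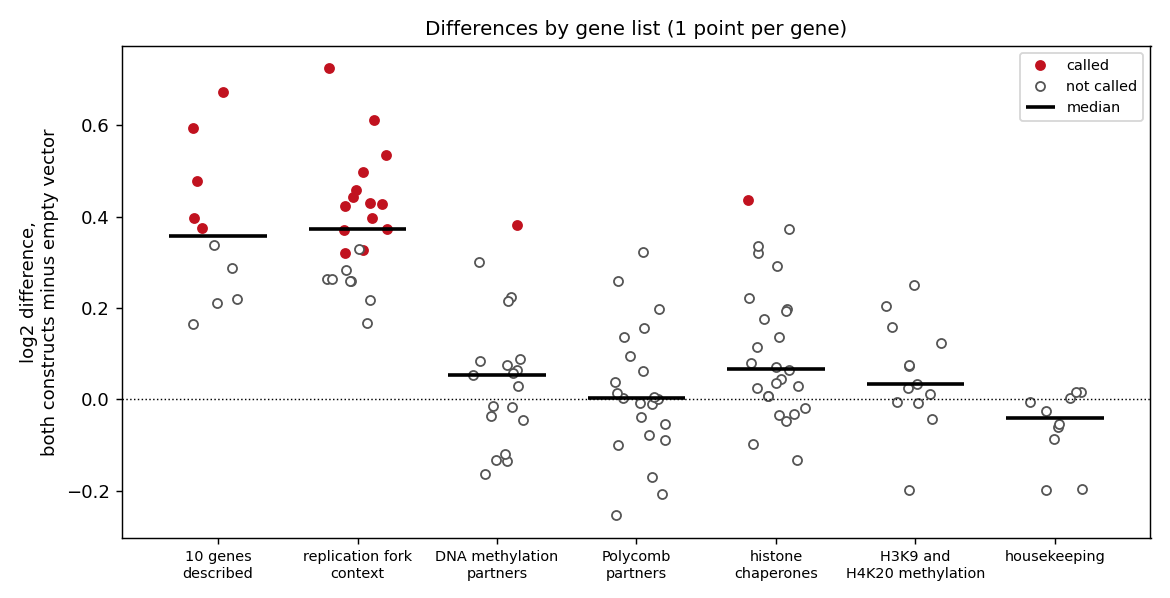
Log2 difference of both constructs minus empty vector for each gene of 7 lists, with a bar at the list median; filled red points are called at an adjusted p under 0.05 over all genes. The 10 genes described and the 22 fork genes have medians of 0.36 and 0.37, and the partner lists and housekeeping genes lie between -0.04 and 0.068.

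The profile of the 10 genes over the 8 arrays, each centred on its own mean, was compared with other genes at or above the median level. The 6 most alike were CDKN3 (Pearson r = 0.996), RAD51AP1 (0.996), CENPM (0.994), AGBL5 (0.990), H2AZ2 (0.990) and CCNB2 (0.989), as a description over 8 arrays that share 3 groups. Of 9106 such genes 193, or 2.12%, had an r over 0.9, as did 7 of the 10 genes themselves, which make up the profile. CDKN3, a phosphatase of cyclin-dependent kinases, rose by 0.45 (adjusted p = 0.0144), and CENPM, a centromere protein, by 0.48 (adjusted p = 0.0124). CHAF1B (0.793), DNMT1 (0.830) and SUZ12 (0.864) followed the common profile least. Within groups the arrays deviated little from their means: averaged over the 10 genes, deviations were -0.017 to 0.018, and the largest single one was CDCA7 in wild-type replicate 2, at 0.20.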

How the data were processed

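The deposited table held log2 expression of 48864 probe sets on 8 arrays; the submitters' processing notes name RMA and R 3.5.0. The 10 control probe sets, 1325 with several genes and 2309 with none were left out. Groups and replicate numbers came from sample titles. The brightest probe set stood for each of 18231 genes. All 8 arrays entered 1 fit of the group means (limma 3.58.1 in R 4.3.3, eBayes defaults, 5 residual and 3.27 prior degrees of freedom, two-sided, Benjamini-Hochberg over all genes). The genes, lists and tests were chosen with earlier results of these data known. Named genes beyond the 10 were relatives, up to 4 called genes per list (otherwise 2 with the smallest p) and the 6 most alike profiles. EED, RBBP4 and RBBP7 were added outside that rule as core subunits. The fit was tested on simulated data. Start-site windows came from RefSeq. In all, 16 alternatives were tried. The arrays have no detection calls here, and their number limits the precision.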

Additional observations from a re-analysis of the deposited data

How the results depend on the processing

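Of the 10 genes' differences, all 150 refits of both constructs, 160 of wild type and 160 of T286A against empty vector kept their sign, and 152 of 160 of T286A against wild type did. Counts of genes called (255 with both constructs, 317 with wild type, 97 with T286A, 180 in T286A against wild type) moved more. In the same order they were 624, 629, 527 and 381 with dim genes left out, and 719, 726, 618 and 579 with an intensity trend. Array weights gave 436 and 317 for both constructs and T286A. The mean of all probe sets gave 190 with T286A, and housekeeping centring 194. The fits of only the groups compared gave 68 with wild type and 4 with T286A. Leaving out 1 array gave 3 to 199, 22 to 196, 1 to 87 and 70 to 128. Of the 10 genes, an intensity trend called 8, 7, 8 and 2, and leaving out dim genes called 6 with wild type and 2 in T286A against wild type. With wild type, the mean of all probe sets called 2, median centring 4, housekeeping centring 3, array weights 2 and the groups compared 0. With T286A, median centring called 3 and the groups compared 0. Leaving out 1 array called 0 to 5, 0 to 1, 0 to 4 and 0 to 1 of the 10 genes. The cause was not tested. Scaling also moved the split of calls higher and lower. It was 128 and 127 with both constructs, but 158 and 102 with median and 217 and 91 with housekeeping centring. With wild type it was 110 and 207, against 195 and 146 and against 168 and 149. With T286A it was 62 and 35, against 155 and 39 with housekeeping centring, and in T286A against wild type 109 and 71, against 91 and 109 with median centring.

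With the replicate number as a block, 7, 71, 3 and 86 genes and 0, 0, 0 and 0 of the 10 genes were called in the same order. Arrays with the same number did not deviate together (correlations -0.091 to 0.12), so the numbers are not taken to pair samples. Fits without an empty vector array rest on a single control, assumed to vary like the other groups.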
